A study of Mus musculus with 8 samples.

Results

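The 10 genes described here (Serpina3n, Osmr, Aspg, Lcn2, Cd44, Timp1, S1pr3, Steap4, Stat3 and Socs3) are known from earlier work as genes that astrocytes can switch on after injury or inflammation. They were taken by gene symbol from the 54232 genes that the files list, and each symbol matched 1 gene. Nuclei came from a cube of forebrain next to the lesion, from male Swiss Webster mice aged 10 weeks, in 8 libraries. Each of the 4 groups had 2 libraries: control surgery, BCAS surgery, TBI (traumatic brain injury) surgery, and both surgeries (BCAS+TBI). The labels do not spell out BCAS, which the study's title ties to cerebral hypoperfusion, a reduced blood supply to the brain. No transgene or mutant allele is named for any group, and no time between surgery and collection is given. The design asks what each surgery does alone and whether BCAS alters the response to TBI.

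Reactive astrocytes are astrocytes that have altered their shape and gene expression after damage. One well known route runs from cytokines of the interleukin-6 family: oncostatin M binds its receptor OSMR, paired with the shared subunit gp130 (Il6st), Janus kinases then phosphorylate STAT3, and STAT3 dimers enter the nucleus and bind DNA. SOCS3 is induced by STAT3 and shuts the receptor off again, while Serpina3n, Lcn2, Cd44 and Timp1 are among the genes known to be induced downstream. None of these genes belongs to astrocytes alone: endothelial cells, mural cells (pericytes and smooth muscle), fibroblasts and leukocytes can carry them too.

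Since this route ends at promoters, the 250 bases upstream of the RefSeq start of each gene (build GRCm38.p6) were searched on both strands for 3 short motifs. These were the STAT motif TTCNNNGAA, the NF-kB motif (GGGA, then 4 of any base, then CC) and the AP-1 motif TGANTCA, and all 10 genes had an entry. Upstream here means before that RefSeq start: 5 of the 10 windows (Osmr, Aspg, Lcn2, Steap4 and Socs3) overlap an exon that GENCODE M21 gives to the same gene, which for Socs3 belongs to a noncoding transcript. STAT matches stood upstream of 2 of the 10 genes, Socs3 and Steap4, against 7.02% of all 32851 promoters. NF-kB matches stood upstream of 4 (Serpina3n, Osmr, Steap4 and Socs3), against 17.6% of all promoters, and AP-1 matches upstream of none, against 6.75%. Socs3 and Serpina3n are shown because one is the feedback gene of the route and the other an acute-phase gene downstream of it. Capitals mark the motif matches, and each sequence is on the strand of its gene.
Socs3, chr11:117969367-117969616, minus strand: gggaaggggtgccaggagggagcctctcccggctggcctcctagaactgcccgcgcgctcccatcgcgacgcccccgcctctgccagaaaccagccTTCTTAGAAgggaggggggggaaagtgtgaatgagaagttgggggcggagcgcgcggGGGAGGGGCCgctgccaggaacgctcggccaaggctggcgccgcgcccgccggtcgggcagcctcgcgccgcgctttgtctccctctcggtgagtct
Serpina3n, chr12:104406458-104406707, plus strand: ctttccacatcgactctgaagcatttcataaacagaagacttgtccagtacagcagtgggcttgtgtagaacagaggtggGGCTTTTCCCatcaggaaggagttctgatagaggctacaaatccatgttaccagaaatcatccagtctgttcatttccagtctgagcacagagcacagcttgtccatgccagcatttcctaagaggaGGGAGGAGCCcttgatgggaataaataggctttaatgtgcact
In Socs3 the STAT match TTCTTAGAA began 154 bases before the start and the NF-kB match 97 bases before it. Serpina3n held only NF-kB matches, at 170 and 43 bases before its start. A match of letters is a description of the window, and no binding was measured.

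Nuclei were sorted into classes by marker genes that include none of the 10 genes. Of 45565 nuclei kept, 3423 were astrocyte, 2828 oligodendrocyte, 2437 vascular (1307 endothelial, 425 mural and 705 fibroblast) and 30094 neuron nuclei. The class names were checked against the markers: 10 of 12 astrocyte markers, 11 of 11 oligodendrocyte markers, 10 of 10 endothelial markers and 9 of 11 neuron markers were higher in their own class than in any other. Libraries held 28118725 to 56135192 UMIs (unique molecular identifiers, each 1 counted RNA molecule) in 6191 to 7882 barcodes. At the widest gap in total UMIs they fell into 2 sets, each with 1 library of every group: control 1, BCAS 1, TBI 1 and BCAS+TBI 2 form set 1, with at most 33363564 UMIs and with mitochondrial shares of 1.20% to 2.77%, and the others form set 2, with at least 42651388 UMIs and mitochondrial shares of 0.511% to 1.04%. Any 2 libraries shared 5 to 20 barcodes. Levels below are CPM, the UMIs of a gene per 1000000 UMIs of its class in a library. In nuclei of 1 class, a higher level per nucleus and a larger share of nuclei of an expressing subtype cannot be told apart. The labels number biological replicates but do not say how many mice each library holds. The p-values therefore weigh a difference between groups against the spread between the libraries of a group.

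By level, the genes fell into several patterns across the 10 classes. Serpina3n had its highest pooled level in astrocytes (34.4 CPM) and was lower in oligodendrocyte precursors (16.8) and oligodendrocytes (12.3). Cd44, a receptor for hyaluronan, was highest in astrocytes (29.1), microglia (21.5) and ependymal cells (18.7). Aspg, an asparaginase, was highest in fibroblasts (89.0), ahead of astrocytes (29.5), and had no UMI in mural nuclei. Osmr was highest in endothelial (136), mural (112) and fibroblast (48.3) nuclei, against 12.8 in astrocytes and 0.330 in neurons. S1pr3, a receptor for sphingosine 1-phosphate, peaked in mural nuclei (162), and astrocytes had 12.7. Lcn2, which encodes the iron-siderophore binder lipocalin-2, stood at 34.3 in endothelial nuclei and at 1.06 in astrocytes. So for 4 of these genes (Osmr, Aspg, S1pr3 and Lcn2) a vascular class, not the astrocytes, had the highest level.

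**Figure D1:**
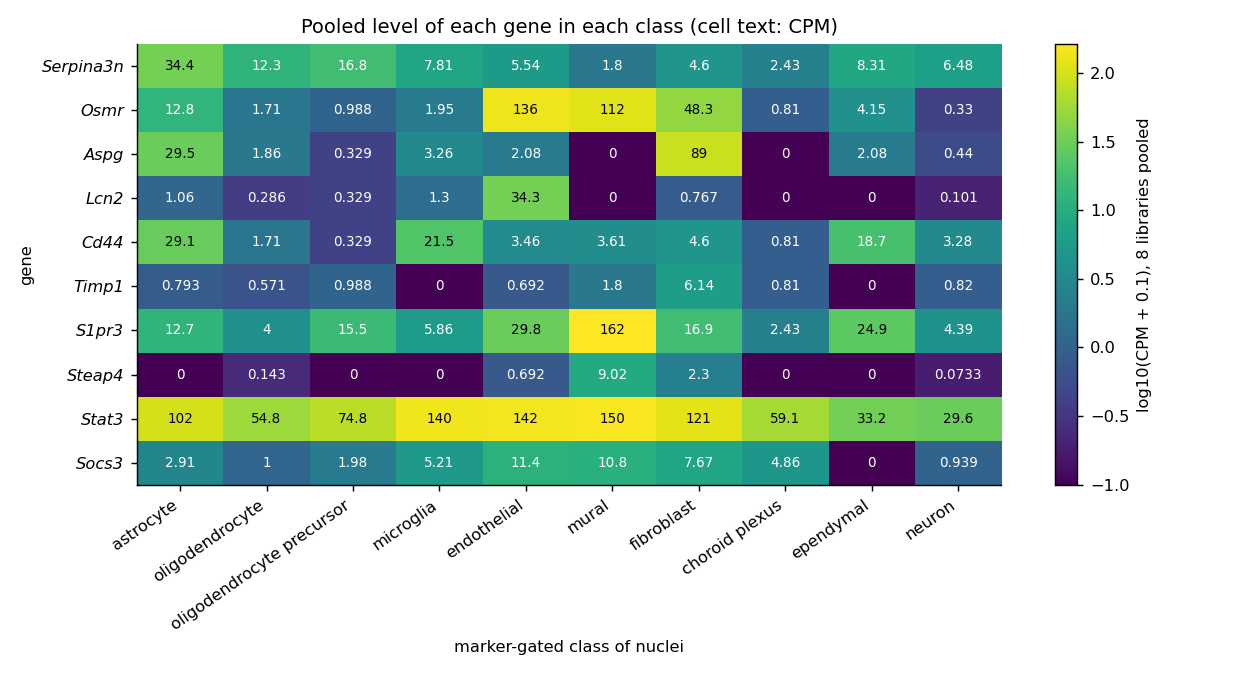
Each cell gives the level of 1 gene (rows) in 1 marker-gated class (columns), in CPM over all 8 libraries pooled, and the colour gives the same value as log10(CPM + 0.1). Serpina3n and Cd44 are highest in astrocytes, Osmr and Lcn2 in endothelial, S1pr3 in mural and Aspg in fibroblast nuclei, and Steap4 has no UMI in astrocytes.

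Stat3, the transcription factor of the route, was present in every class, from 29.6 CPM in neurons to 150 in mural nuclei. Its neighbours in that order, 142 in endothelial and 140 in microglial nuclei, lay within the spread of the libraries (82.5 to 217 in endothelial nuclei alone). The other 3 genes were close to the limit of detection. Socs3 had 347 UMIs in all and 22 in astrocytes, and its highest pooled levels were those of endothelial (11.4 CPM) and mural (10.8) nuclei. Timp1, an inhibitor of matrix metalloproteinases, had 236 UMIs, of which 179 lay in neurons at 0.820 CPM, 6 in astrocytes and 8 in fibroblasts, where the pooled level was highest (6.14 CPM). Steap4, a metalloreductase, had 31 UMIs in 45565 nuclei and none in 3423 astrocyte nuclei, which allows a level of up to 2.12 to 5.58 CPM per library if 3 UMIs are taken as the limit of a count of 0. Its highest pooled level was that of mural nuclei (5 UMIs, 9.02 CPM).

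The genes whose level across the 10 classes was most like that of each member, by Pearson's r of log2(CPM + 1) over 21336 genes, included Dio2 (0.95) and Dbx2 (0.95) for Serpina3n, Ranbp3l (0.94) and Gjb6 (0.93) for Aspg, Ppic (0.98) and Cd151 (0.97) for Osmr, Gm10030 (0.98) and Tmem252 (0.95) for Lcn2, Klhl23 (0.94) and Heyl (0.94) for S1pr3, Ccdc80 (0.90) for Cd44, Gm37436 (0.97) for Timp1, Gm13470 (0.97) for Steap4, Tnfrsf1a (0.98) for Stat3, and Tmem37 (0.97) for Socs3. These values describe 10 classes that share the same libraries, and Ranbp3l is also 1 of the markers that define the fibroblast gate. The genes compared had at least 100 UMIs, a minimum that was not set for the members. Steap4 (31 UMIs in all), Lcn2 (156) and Timp1 (236) had few or no UMIs in most classes, so their matches rest on counts near 0.

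In the comparison of TBI surgery with none, averaged over BCAS, no class-gene pair of 54671 passed the adjusted threshold of 0.05 in edgeR's quasi-likelihood test (0%), and 564 had an unadjusted p under 0.05. DESeq2 called 0 as well, with 203 under an unadjusted 0.05. No member was therefore called in any class. Each group held 1 library of each set, so the spread within a group in this fit included the difference between the sets. A lack of calls is therefore not evidence that levels were equal. With the block described next, 2640 pairs had an unadjusted p under 0.05. When a block for the library set was added to the fit, chosen with earlier results of these data known, 16 pairs passed (0.0293%), 4 of them higher and 12 lower, and 1 of these was a member: Lcn2 in vascular nuclei. Members passed the filter on low counts in 6 cases in astrocytes, 2 in oligodendrocytes, 5 in vascular nuclei and 8 in neurons. A gene measured mainly in 1 group could pass through that group alone, so the counts of members given next are descriptions.

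**Figure D2:**
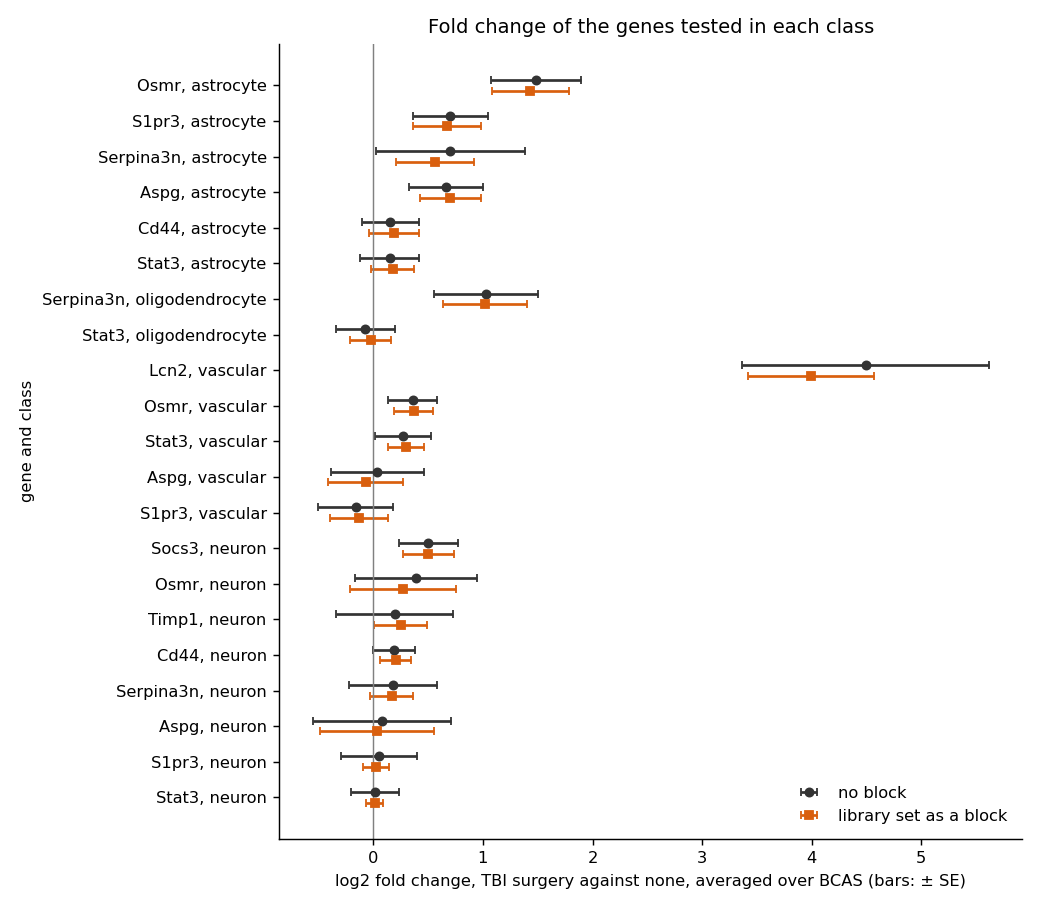
Points give the log2 fold change of TBI surgery against none, averaged over BCAS, for the 21 pairs of member and class that passed the filter, with bars of 1 standard error, from the fit without a block (circles) and with the library set as a block (squares). Lcn2 in vascular nuclei stands at 4.49 and 3.99, Osmr in astrocytes at 1.48 and 1.43, and the other 19 pairs lie between -0.16 and 1.02 without the block.

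Osmr, the receptor at the top of the route, was low in astrocytes: 9.40 and 10.2 CPM in the control libraries, 5.84 and 3.53 in BCAS, 30.4 and 11.2 in TBI, and 13.9 and 17.7 in BCAS+TBI. All 4 libraries with TBI lay above all 4 without, as did 0.711% of the genes tested in astrocytes. The gap was narrow, since TBI 2 (6 UMIs) and control 2 (12 UMIs) were neighbours, and the 4 means were led by TBI 1. The mean was 18.3 ± 8.48 CPM (SD, n = 4 libraries) with TBI and 7.24 ± 3.12 without, a log2 fold change of 1.48 (SE 0.41, adjusted p = 1.00 in edgeR). With the library set as a block it was 1.43 (SE 0.35, adjusted p = 0.493), and without TBI 1 it was 0.99. The 97 UMIs lay in 81 of the 3423 astrocyte nuclei (2.37%), with at most 6 in 1 nucleus. In TBI 2 the level rested on 6 UMIs in 5 nuclei, and without its highest nucleus it was 7.56 CPM, below both control libraries, so the separation of the arms depended on 1 nucleus. Neurons, with a median of 6056 UMIs against 1925 in astrocytes, held an Osmr UMI in 0.223% of nuclei.

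In endothelial nuclei Osmr was 108 and 172 CPM in control, 87.0 and 104 in BCAS, 140 and 147 in TBI, and 158 and 136 in BCAS+TBI. The arms overlapped, because control 2 was the highest of all. An Osmr UMI was found in 283 of 1307 endothelial nuclei (21.7%). Over the vascular class the fold change was 0.36 (SE 0.23, adjusted p = 1.00), and the difference between classes was not tested.

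Stat3 in astrocytes was 49.7 and 114 CPM in control, 105 and 102 in BCAS, 135 and 91.1 in TBI, and 102 and 78.2 in BCAS+TBI. The 2 control libraries were the lowest and the second highest of all, and the fold change with TBI was 0.15 (SE 0.27, adjusted p = 1.00). In the other classes, none of them called, it was -0.07 in oligodendrocytes, 0.27 in vascular nuclei and 0.02 in neurons. For the STAT3 target and inhibitor Socs3, only neurons passed the filter. There it was 1.09 and 0.773 CPM in control, 0.583 and 0.748 in BCAS, 1.02 and 0.912 in TBI, and 1.29 and 1.27 in BCAS+TBI, a log2 fold change of 0.50 (SE 0.27, adjusted p = 1.00). Socs3 was higher in neurons with Slc17a7, the vesicular glutamate transporter of cortical excitatory cells (1.39 ± 0.502 CPM, SD, n = 8 libraries), than in inhibitory neurons (0.273 ± 0.243), as a description over the same libraries.

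Of the other 30 genes listed for the interleukin-6 family and the JAK-STAT pathway, 15 could be tested in astrocytes and none was called. Their median log2 fold change with TBI was -0.00, beside 0.01 over all genes tested, with 7 above zero and 8 below. The ligand genes Il6, Osm and Cntf had no UMI in astrocyte nuclei, while Lif and Ctf1 had 13 each, Clcf1 had 8 and Il11 had 3. The receptor subunit genes Lifr and Cntfr averaged 164 and 125 CPM there, with fold changes of 0.00 and 0.22. Pias1, an inhibitor of STAT proteins, averaged 236 CPM with a fold change of -0.04, and Ptprt, a receptor phosphatase, 972 CPM with -0.00. The fold changes of these 4 genes were thus all smaller than that of Osmr, and the differences between genes were not tested.

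Serpina3n, a secreted inhibitor of serine proteases, varied more between libraries than between surgeries. Its astrocyte level was 16.1 and 25.5 CPM in control, 53.7 and 11.3 in BCAS, 81.2 and 7.44 in TBI, and 18.2 and 53.1 in BCAS+TBI. The 3 libraries above 50 CPM (BCAS 1, TBI 1 and BCAS+TBI 2) all belong to library set 1, and TBI 2 was the lowest of all. The fold change with TBI was 0.70 (SE 0.68, adjusted p = 1.00), and without TBI 1 it turned to -0.64. Within set 1 the TBI libraries averaged 32.3 CPM above the others, and within set 2 they averaged 5.56 below. Serpina3n UMIs were found in 227 of 3423 astrocyte nuclei (6.63%), beside 1 of 425 mural nuclei (0.235%), and at most 6 were in 1 nucleus. The share was 13.6% in TBI 1 and 1.59% in TBI 2, and 7.51% and 0.662% with each nucleus thinned to 1000 UMIs. The 2 libraries of 1 group thus also differed at equal depth per nucleus.

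In oligodendrocytes Serpina3n was 9.35 and 6.16 CPM in control, 17.1 and 3.60 in BCAS, 24.2 and 13.6 in TBI, and 14.6 and 15.6 in BCAS+TBI. Apart from BCAS 1, which only TBI 1 exceeded, the libraries without TBI were lower than those with it. The counts were small: TBI 2, control 2 and BCAS 2 held 5 UMIs each, and control 1 held 9. Without its highest nucleus TBI 2 was 10.9 CPM. The fold change was 1.02 (SE 0.48, adjusted p = 1.00), and 1.02 (SE 0.38, adjusted p = 0.956) with the library set as a block. Neurons held 64.8% of all Serpina3n UMIs because they were most of the nuclei, at 3.23 to 13.4 CPM. In neurons all 4 libraries of set 1 (7.04 to 13.4 CPM) were above all 4 of set 2 (3.23 to 5.98), which 40.3% of all genes tested in neurons also showed, and the fold change with TBI was 0.18 (SE 0.40, adjusted p = 1.00). S1pr3 and Timp1 were likewise higher in set 1 in neurons, and Stat3 was lower there, as 16% of genes were.

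**Figure D3:**
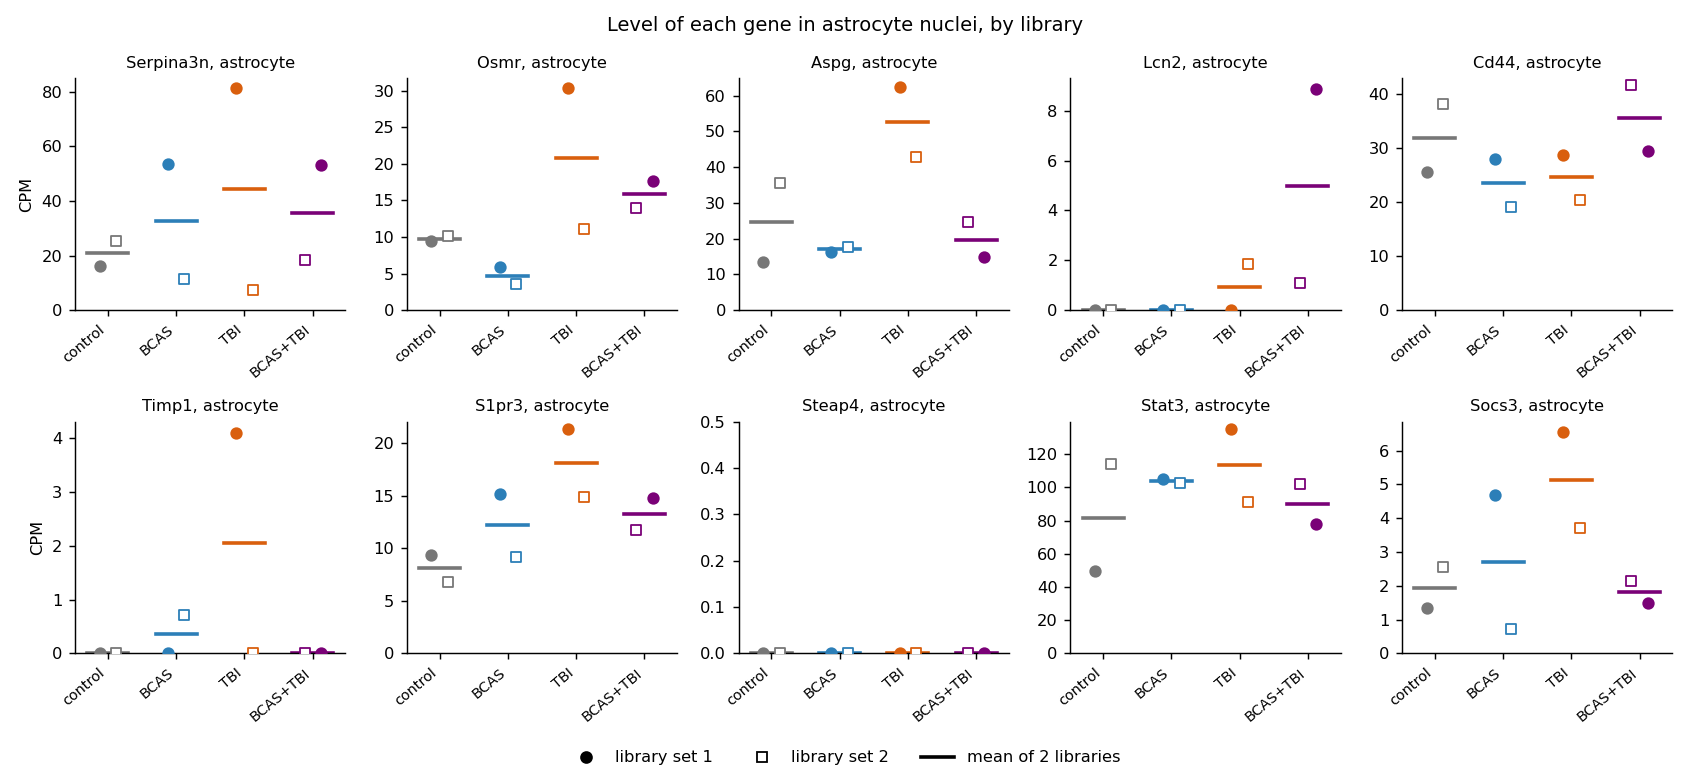
Each panel gives 1 gene in astrocyte nuclei, in CPM on a linear axis from 0, with 1 point per library, circles for library set 1, open squares for set 2 and a bar for the mean of the 2 libraries of a group. Osmr is higher in all 4 TBI libraries (11.2 to 30.4) than in the others (3.53 to 10.2), Serpina3n is split between the libraries of 1 group (81.2 and 7.44 in TBI), and Steap4 is at 0 throughout.

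Lcn2 showed the widest difference of the 10 genes, and it lay in endothelial nuclei. The endothelial level was 9.81 and 1.76 CPM in control, 0 and 0 in BCAS, 48.0 and 2.82 in TBI, and 28.4 and 240 in BCAS+TBI. TBI 1 and both BCAS+TBI libraries were above every library without TBI, whereas TBI 2 lay among the control libraries. The highest levels, in TBI 1 and BCAS+TBI 2, were those of the libraries with TBI in set 1. Within set 1 the libraries with TBI averaged 139 CPM above the others, and within set 2 they averaged 14.7 above. UMIs were in 2 of 149 endothelial nuclei in control 1, 1 of 243 in control 2, 0 of 85 in BCAS 1 and 0 of 197 in BCAS 2. They were in 8 of 152 nuclei in TBI 1, 1 of 243 in TBI 2, 3 of 158 in BCAS+TBI 1 and 10 of 80 in BCAS+TBI 2. Summed over libraries, 22 of 633 endothelial nuclei with TBI and 3 of 674 without held an Lcn2 UMI. In BCAS+TBI 2 the share was 12.5% (95% Wilson interval 6.93% to 21.5%, which covers counting error only), and in TBI 2 it was 0.412% (0.0727% to 2.29%). Neurons held an Lcn2 UMI in 20 of 30094 nuclei (0.0665%), with a median of 6056 UMIs per nucleus against 1081 in endothelial nuclei. Of these 20 nuclei, 6 were in TBI 1 (0.206% of its neurons) and 9 in BCAS+TBI 2 (0.276%).

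**Figure D4:**
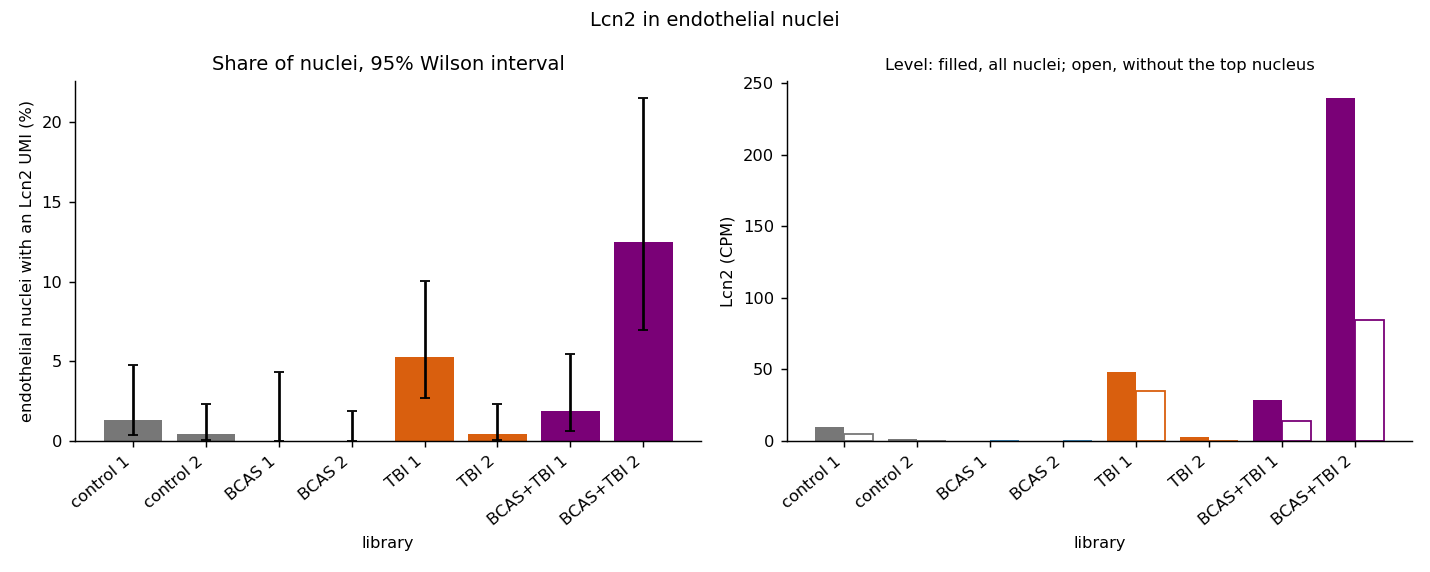
The left panel gives the share of endothelial nuclei with an Lcn2 UMI in each library (percent, bars from 0, with 95% Wilson intervals), and the right panel the level in CPM with all nuclei (filled) and without the nucleus that has the most Lcn2 UMIs (open). TBI 1 and BCAS+TBI 2, the libraries with TBI in library set 1, stand out at 5.26% and 12.5%. The level of BCAS+TBI 2 falls from 240 to 84.3 CPM without 1 nucleus.

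Over the vascular class, the TBI fold change of Lcn2 was 4.49 (SE 1.12, adjusted p = 1.00 in edgeR). With the library set as a block it was 3.99 (SE 0.58, adjusted p = 0.031), and DESeq2 with the block gave 4.00 (SE 0.89, adjusted p = 0.0339). Without the filter on low counts, edgeR gave 4.43 (SE 0.56, adjusted p = 2.33e-10) without a block, and called Lcn2 in BCAS+TBI against TBI too (2.20, adjusted p = 0.0489), which the filtered fit did not (2.26, adjusted p = 1.00). The fits without the filter took in 113551 pairs and called 16 and 8 of them in these 2 comparisons. The Lcn2 counts were those of the filtered fit, and only the pairs fitted beside them, from which the spread was estimated, differed. The block's call rested on few nuclei. A single nucleus of BCAS+TBI 2 held 44 of the 65 Lcn2 UMIs of its library's endothelium, and without it the blocked value was 3.48 (adjusted p = 0.267). It was a deep nucleus, of 22102 UMIs, with 330 UMIs of endothelial markers. The call was also lost without high-UMI nuclei, those above 3 times the median (4.35, adjusted p = 0.556), and when control 1, BCAS 1, TBI 1 or either BCAS+TBI library was left out. Every one of these fits kept a fold change above zero, from 2.80 to 5.85 with the block and 1 library left out.

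Markers of other cells in the vascular gate are given beside this result. Of 7 neutrophil and monocyte markers 2 were higher with TBI, and Mpo and Ngp had no UMI. Their summed level was 910 CPM in BCAS 1, where Lcn2 had no UMI, and 114 in TBI 1, 79.6 in BCAS+TBI 2 and at most 22.6 in the others. Among the Lcn2-positive endothelial nuclei, 69 neutrophil and monocyte marker UMIs were found in TBI 1 and 0 in each of the other libraries. Haemoglobin genes, the red blood cell markers, were highest in BCAS+TBI 2 (29275 CPM) and TBI 1 (18893), the 2 libraries with the most Lcn2, but reached 14444 in BCAS 1. With the libraries of each arm pooled, all 4 genes were higher with TBI. Within set 2, however, the libraries with TBI held 1734 and 2047 CPM, below those without (4918 and 8007). The part of these RNAs in the Lcn2 result was not tested. In neurons, Lcn2 was at 0.307 CPM in TBI 1 and 0.553 in BCAS+TBI 2 and at most 0.0802 in any other library, so these 2 libraries led there too.

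In astrocytes Lcn2 was nearly absent, with 8 UMIs in 4 of 3423 nuclei. All 8 were in libraries with TBI: 1 in TBI 2, 1 in BCAS+TBI 1 and 6 in BCAS+TBI 2. None was found in TBI 1 or in the 4 libraries without TBI, where a count of 0 allows up to 2.12 to 4.03 CPM. The gene did not pass the filter there and has no test. Slc22a17, a receptor for lipocalin-2, averaged 151 CPM in astrocytes with a fold change of 0.30 (adjusted p = 1.00).

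Timp1 passed the filter in neurons alone, with a TBI fold change of 0.20 (SE 0.53, adjusted p = 1.00). In astrocytes 5 of its 6 UMIs were in TBI 1. Its relatives Timp3 and Timp4, far more common in astrocytes at 223 and 79.8 CPM, had fold changes of -0.10 and -0.17.

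Aspg in astrocytes was highest in the 2 libraries with TBI alone. It was 13.4 and 35.7 CPM in control, 16.3 and 17.7 in BCAS, 62.4 and 42.8 in TBI, and 24.6 and 14.8 in BCAS+TBI. Both TBI libraries were above all 6 others, as in 2.41% of the genes tested, and both BCAS+TBI libraries were below control 2. By share of nuclei with an Aspg UMI, TBI 2 (7.14%, 18 nuclei) was below control 2 (7.66%, 32 nuclei). The median astrocyte nucleus held 2028 UMIs in TBI 2 and 2499.5 in control 2. BCAS+TBI against TBI gave a log2 fold change of -1.39 (SE 0.47, adjusted p = 1.00), TBI against control 1.07 (SE 0.45, adjusted p = 1.00), and BCAS averaged over TBI -0.99 (SE 0.34, adjusted p = 1.00). These 3 comparisons share libraries. None of 54671 pairs was called in any of them (0%), where 495, 472 and 656 pairs had an unadjusted p under 0.05, and DESeq2 called no member in any of them. With the library set as a block, the same values were -1.48 (adjusted p = 0.618), 1.13 (adjusted p = 1.00) and -1.05 (adjusted p = 0.427).

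The fibroblasts gave the other site of Aspg, with 39.8 and 67.7 CPM in control, 131 and 120 in BCAS, 243 and 74.8 in TBI, and 40.6 and 50.3 in BCAS+TBI. Here all 4 libraries with 1 surgery alone were above both control libraries, as in 4.62% of the genes tested in fibroblasts, and the BCAS+TBI libraries were not. This order depended on 1 nucleus: TBI 2 held 17 UMIs in 15 nuclei, and without its highest nucleus it was 66.3 CPM, below control 2. In TBI 1, 1 nucleus held 8 of the 33 UMIs. Over the vascular class, in which nearly all Aspg UMIs were in fibroblasts (116 of 122), BCAS+TBI against TBI was -1.71 (SE 0.56, adjusted p = 1.00), and the interaction of the surgeries was -2.09 (SE 0.79, adjusted p = 1.00). With fibroblasts tested as a class of their own the interaction was -2.82 (SE 0.84, adjusted p = 1.00). No pair was called for the interaction in edgeR (0%, 442 at an unadjusted p under 0.05).

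**Figure D5:**
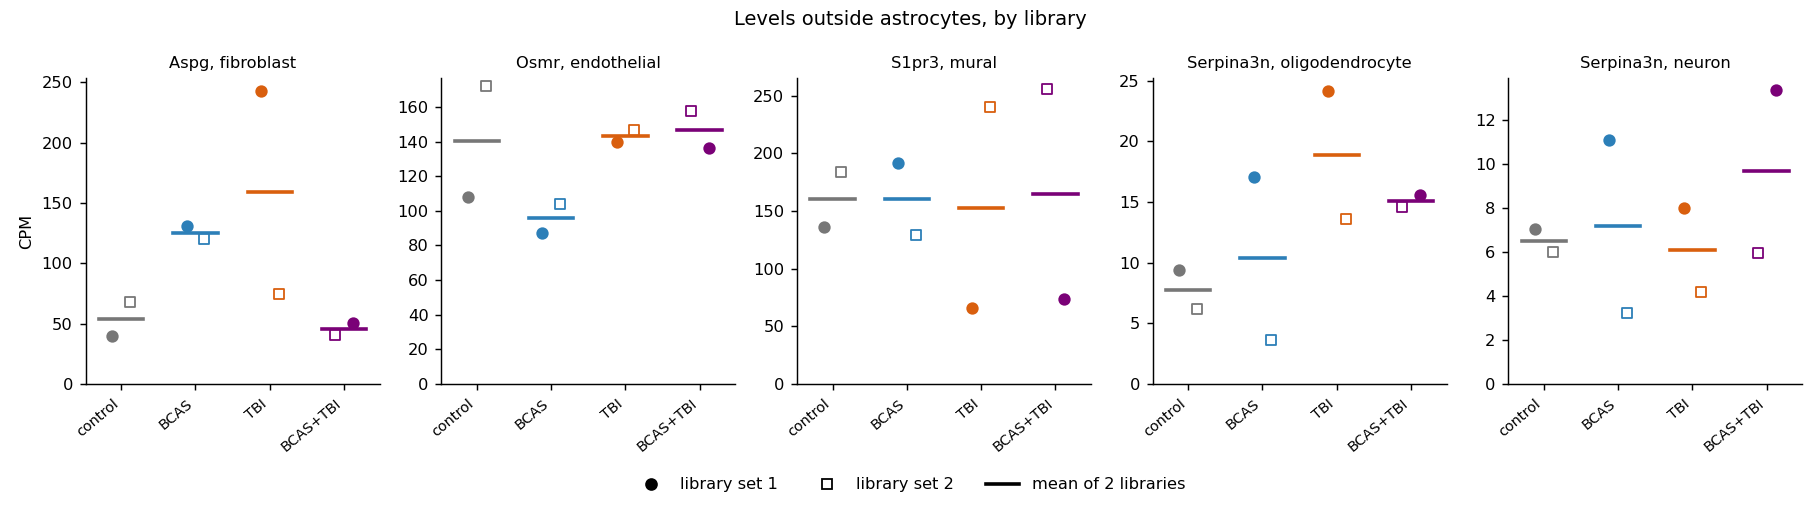
Panels give Aspg in fibroblasts, Osmr in endothelial nuclei, S1pr3 in mural nuclei and Serpina3n in oligodendrocytes and neurons, in CPM from 0, with 1 point per library, circles for library set 1, open squares for set 2 and bars for group means. Aspg is at 243 in TBI 1 and 40.6 to 50.3 in BCAS+TBI, and Serpina3n in neurons is higher in every set 1 library (7.04 to 13.4) than in any of set 2 (3.23 to 5.98).

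Cd44 in astrocytes was 25.5 and 38.2 CPM in control, 28.0 and 19.1 in BCAS, 28.7 and 20.5 in TBI, and 41.8 and 29.5 in BCAS+TBI. Both BCAS+TBI libraries were above both BCAS and both TBI libraries, as in 2.83% of the genes tested, while the control libraries overlapped every other group. The gap was narrow, between 29.5 CPM in BCAS+TBI 2 and 28.7 in TBI 1. With 677652 astrocyte UMIs in BCAS+TBI 2, it was smaller than a single UMI of that library. The TBI fold change was 0.15 (SE 0.26, adjusted p = 1.00) and the interaction of the surgeries 1.02 (SE 0.52, adjusted p = 1.00). A UMI was found in 5.17% of astrocyte nuclei. In microglia the level was 10.1 to 24.7 CPM in 7 libraries and 90.6 in TBI 2, on 8 UMIs. Among neurons, those with Slc17a6, the second vesicular glutamate transporter, had 6.56 ± 2.61 CPM (SD, n = 8 libraries), beside 3.28 ± 0.987 in Slc17a7 neurons and 1.33 ± 0.954 in inhibitory neurons.

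S1pr3 in astrocytes was 9.40 and 6.80 CPM in control, 15.2 and 9.18 in BCAS, 21.3 and 14.9 in TBI, and 11.8 and 14.8 in BCAS+TBI. Only BCAS 1 among the libraries without TBI reached the range of those with it. The fold change was 0.70 (SE 0.34, adjusted p = 1.00), and 0.67 (adjusted p = 0.997) with the library set as a block. Where the gene was most abundant, in mural nuclei, it was 136 and 184 CPM in control, 192 and 129 in BCAS, 65.7 and 240 in TBI, and 256 and 73.9 in BCAS+TBI. The 2 lowest mural values were those of TBI 1 and BCAS+TBI 2, on 5 and 4 UMIs, and the fold change over the vascular class was -0.16 (SE 0.34, adjusted p = 1.00). The sister receptor gene S1pr1 averaged 400 CPM in astrocytes with a fold change of 0.25 (adjusted p = 1.00).

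Across the 6 members tested in astrocytes, every fold change with TBI was above zero (0.15 to 1.48, median 0.68), whereas 52.4% of all genes tested were above zero with a median of 0.01. Osmr was the only 1 of the 6 with an unadjusted p under 0.05, which 0.495% of genes reached on the higher side. The same sign was shared by 8 of 8 members in neurons (median 0.18, beside 51.5% of all genes), 4 of 5 in vascular nuclei (54.0%) and 1 of 2 in oligodendrocytes (49.8%). Of 5 other genes that are raised in many kinds of reactive astrocyte, 4 were tested, and 3 were above zero. Gfap, an intermediate filament gene, averaged 347 ± 190 CPM (SD, n = 4 libraries) with TBI and 158 ± 43.4 without, a fold change of 1.14 (SE 0.35, adjusted p = 1.00), and was called with the library set as a block (1.08, SE 0.16, adjusted p = 0.0257). The call was lost without TBI 1 (0.80, adjusted p = 0.186), BCAS+TBI 1 (1.01, adjusted p = 0.375), BCAS+TBI 2 (1.12, adjusted p = 0.370) or the high-UMI nuclei (0.93, adjusted p = 0.0506), and DESeq2 with the block gave 1.06 (adjusted p = 0.00271). Vim stood at 0.76 and Cp at -0.02, neither called. Cxcl10, a chemokine gene, was 39.4 CPM in TBI 1 and 28.0 in BCAS+TBI 2, the libraries with TBI in library set 1. It had no UMI in TBI 2, BCAS+TBI 1 or either control library, and at most 2.12 CPM in BCAS. Its fitted fold change of 5.13 (SE 1.79, adjusted p = 1.00) is taken against a group near 0. Without the filter on low counts, edgeR without a block called both Cxcl10 (5.11, adjusted p = 5.04e-08) and Gfap (1.13, adjusted p = 0.0182). They were among 16 pairs called of 113551, and the spread was estimated there with pairs that the filter removes.

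Lists that earlier work tied to 2 states of reactive astrocytes gave little to test. Of 12 genes called A1, 3 passed the filter and all 3 were above zero without a call: H2-D1 (0.83), Ggta1 (0.65) and Fkbp5 (0.22). Serping1, the next by mean level at 5.87 CPM, did not pass. When the filter was left out, edgeR called another A1 gene, Iigp1 (5.02, adjusted p = 0.000912), as 1 of the 16 pairs of 113551. Iigp1 was 34.5 CPM in TBI 1, 8.85 in BCAS+TBI 2 and 1.17 in BCAS 1, and had no UMI in the other libraries. Of 12 genes called A2, none passed; Tm4sf1, S100a10, Cd109 and Ptx3 averaged 6.18, 3.51, 3.44 and 2.27 CPM. Of 19 relatives and receptors of the members, 6 were tested, 4 above zero and 2 below.

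Markers of other cells in the astrocyte class are given by arm. The summed oligodendrocyte markers were 457 to 843 CPM in the libraries with TBI and 877 to 1391 in those without, and 0 of the 11 markers were higher with TBI. Of all single genes tested in astrocytes, 1.21% were lower in all 4 libraries with TBI than in all 4 without, and 52.4% had a fold change above zero. Of the 9 microglial markers, 1 was higher (94.8 to 168 CPM with TBI and 167 to 213 without). The astrocyte markers themselves overlapped between the arms (22461 to 26997 and 20864 to 27171 CPM, 7 of 12 higher with TBI). With the libraries of each arm pooled, haemoglobin genes were higher with TBI in 4 of 4 cases (28.9 to 224 CPM with TBI and 38.2 to 134 without). Their summed level also followed the library set, at 101 to 224 CPM in set 1 and 28.9 to 68.5 in set 2. Within set 2 it was 52.1 and 28.9 with TBI, and 38.2 and 68.5 without. Of the 7 neutrophil and monocyte markers 1 was higher, at 0 to 4.92 CPM with TBI and 1.34 to 10.2 without, and Ly6c2 and Ngp had no UMI. The part of these RNAs in the fold changes was not tested.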

How the data were processed

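Single-nucleus 3′ RNA libraries were deposited as UMI counts per gene and barcode, as whole numbers without normalization. Per the file headers, the authors ran Cell Ranger 7.0.0, and the submitters' processing notes name Seurat, GRCm38 and mm10. Of 53390 barcodes, 4922 failed (under 500 UMIs or 300 genes, or over 5% mitochondrial), and 2903 were removed as the 6% per library with the highest Scrublet score (scanpy 1.11.5), since the automatic threshold marked 12.8% in control 1 and at most 0.0525% elsewhere. A nucleus took the class whose markers scored highest (mean scaled log level, at least 0.2 and 0.1 above the next); 135 astrocyte nuclei lay within 0.05 of that lead. Counts were summed per library and class and tested with edgeR 4.0.16 (quasi-likelihood, two-sided, TMM scaling, all 4 groups in 1 fit, genes filtered by filterByExpr at a count of 10), adjusted by Benjamini and Hochberg over all class-gene pairs of a contrast. DESeq2 1.42.0, RLE, no filter, other gates, Leiden clusters, replicate and library set blocks, and leaving out each library were alternatives. Named were all members in every class, and per list the 4 genes with the highest mean astrocyte CPM. Also named were the ligand genes of the interleukin-6 family, and Iigp1 because it was called without the filter.

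The members, lists and tests were chosen with earlier results of these data known. The library set block was tried because an earlier analysis had shown the sets. Its combinations with DESeq2, with leaving out libraries and with leaving out high-UMI nuclei, and the fits without the nucleus with the most Lcn2, were chosen after seeing the data, as was reading those fits for Gfap. The script was tested on simulated data. Those data held no set difference in gene levels, so they do not show how the fit without a block behaves here. Replicate numbers do not pair the libraries: same-numbered libraries of control, BCAS and TBI deviated together, and those of BCAS+TBI deviated the opposite way. Thinned shares are expected shares at 1000 UMIs per nucleus. Promoters are RefSeq's; 54079 of 54232 gene IDs of the files match GENCODE M21.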

Additional observations from a re-analysis of the deposited data

Results flagged for a closer look

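S1pr3 in vascular nuclei of control 1 (25.1 CPM) lay below the other 3 libraries without TBI, which held 47.0 to 51.2 CPM, by 0.840 of the range of the 4, above Dixon's 95% critical value. It was the 1 value so marked among 42 sets of 4 libraries (21 pairs of gene and class, with and without TBI), and chance marks about 1 in 20. None of the 21 interaction tests on members was past the threshold.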

How the results depend on the processing

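The count of pairs called was 0 for each of the 5 comparisons in edgeR, with or without the replicate block, and 0 to 0 when each library was left out in turn. Without the filter on low counts it was 16 for TBI averaged over BCAS, 22 for BCAS averaged over TBI, 5 for the interaction, 11 for TBI against control and 8 for BCAS+TBI against TBI. The fit without the filter took in 113551 pairs. DESeq2 called 1 pair for BCAS averaged over TBI, a gene that is no member. With the library set as a block, 16 were called for TBI and 1 for the interaction; for TBI the blocked count was 10 in DESeq2, 1 without high-UMI nuclei, 15 without the highest Lcn2 nucleus and, without 1 library, 29 (control 1), 72 (control 2), 38 (BCAS 1), 31 (BCAS 2), 22 (TBI 1), 5 (TBI 2), 1 (BCAS+TBI 1) and 0 (BCAS+TBI 2). The cause was not tested. Replicate numbers do not pair the libraries (correlations of 0.257 to 0.695 among control, BCAS and TBI, and -0.763 to -0.328 with BCAS+TBI), and with the replicate block Lcn2 in vascular nuclei was 4.54. Of 389 fits of 21 member folds, 344 kept their direction and side of the threshold, 43 reversed and 2 passed the threshold. Aspg in neurons turned to -0.25 with a stricter gate and -0.054 with doublets kept, S1pr3 in neurons to -0.0054 with a stricter gate, and Stat3 in oligodendrocytes to 0.016 with at least 1000 UMIs. Aspg in vascular nuclei turned to -0.017 without the filter, -0.067 with the library set block, -0.015 with the replicate block, -0.058 with Leiden clusters, -0.012 with doublets kept, -0.064 with at least 1000 UMIs and -0.037 without high-UMI nuclei. Leaving out each library gave, in astrocytes, -0.0021 to 0.32 for Cd44, -0.64 to 1.39 for Serpina3n and -0.091 to 0.52 for Stat3; in neurons, -0.32 to 1.04 for Aspg, -0.12 to 0.85 for Osmr, -0.25 to 0.27 for S1pr3, -0.11 to 0.65 for Serpina3n, -0.19 to 0.18 for Stat3 and -0.20 to 0.63 for Timp1; -0.29 to 0.16 for Stat3 in oligodendrocytes; and in vascular nuclei -0.34 to 0.27 for Aspg and -0.69 to 0.16 for S1pr3. Depth limits Lcn2, Timp1, Steap4 and Socs3 in astrocytes, with 0 to 22 UMIs each.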
